A study of Mus musculus with 10 samples.

Results

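The genes described here are the Hippo pathway coactivators *Yap1* and *Wwtr1*, which encode YAP and TAZ, their DNA-binding partners *Tead1* to *Tead4*, and the target genes *Ccn1*, *Ccn2*, *Ankrd1* and *Amotl2*. These 10 genes were taken by name, and all 10 were found by Ensembl identifier among the 21792 genes of the deposited RNA-seq values. *Ccn1* and *Ccn2* are also known as *Cyr61* and *Ctgf*. The values come from the kidney cortex of male WT C57BL/6 mice, 8 weeks old when the study began. The 4 sham mice received PBS, and the 6 AAN mice, a model of aristolochic acid nephropathy, were given aristolochic acid once, at 5 mg/kg, into the peritoneum. Cortex was taken 28 days later, each mouse gave its own library, and littermates served as controls in the study. Whole cortex RNA mixes all cell types of the tissue, so fewer cells of a type and less RNA per cell cannot be told apart.

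YAP and TAZ do not bind DNA themselves. They carry a transcriptional activation domain to the promoters and enhancers at which TEAD factors sit. The Hippo kinase MST activates the kinase LATS, and LATS phosphorylates YAP and TAZ, which holds them in the cytoplasm. Their activity is therefore set mainly at the protein level, which mRNA does not measure. *Ccn1* and *Ccn2* encode secreted matricellular proteins, *Ankrd1* a muscle-type ankyrin repeat protein of the nucleus and cytoplasm, and *Amotl2* a junction protein that binds YAP and restrains it. In the kidney, YAP and TAZ are known for roles in tubule development, in repair after injury and in the activation of fibroblasts.

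Depth, recovered from the values themselves, was 15.8 to 17.5 M fragments for the sham libraries and 13.4 to 16.5 M for the AAN libraries. Levels are in FPKM, which scales fragments by transcript length and by the total of the library, so each is a share of a total. Of the FPKM total, 39.5% to 61.4% (sham) and 21.4% to 55.0% (AAN) came from mitochondrially encoded genes. Most genes were higher in AAN: the median log2 fold change over the 17129 genes tested was 0.75, and 82.3% were above 0. After rescaling by the median of ratios, which gives each mouse the same typical gene level, that median was 0.06. With each library scaled to the same total without mitochondrially encoded genes, the median was 0.77 and 82.8% of genes were above 0. Fold changes are given as deposited and, where stated, after the median of ratios. Of the 65 genes listed as cell type markers, *Havcr1*, *Krt20* and *Lum* were listed at 0 in some sham mice, and none in an AAN mouse.

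TEAD factors bind the letters CATTCC, which read GGAATG on the other strand, and stretches upstream of the transcription starts of the genes are printed here because they hold these letters. Upstream sequence of 250 bases was found in the RefSeq promoters of GRCm38.p6 for 7 of the 10 genes, all except *Tead1*, *Tead4* and *Ccn2*. The letters occurred on either strand in 6 of these 7 genes (85.7%), against 14.4% of the 27025 genes with such a sequence (12.6% of their 32851 windows), and *Tead2* had no match. A gene with several annotated starts had several windows, and *Tead3* had 3 and *Wwtr1* 2. *Tead3* held the letters at 2 places of 1 window, from positions -123 and -114, counted from its start, and once more from -182 in the window of another start, and *Ankrd1* held them from -210 and -123. The AP-1 letters TGANTCA occurred in 0 of the 7 genes and in 7.82% of all genes. In the stretches below the capitals mark the TEAD letters, and each reads 5′ to 3′ on the strand of its gene.
Ccn1, minus strand, chr3:145649986-145650235: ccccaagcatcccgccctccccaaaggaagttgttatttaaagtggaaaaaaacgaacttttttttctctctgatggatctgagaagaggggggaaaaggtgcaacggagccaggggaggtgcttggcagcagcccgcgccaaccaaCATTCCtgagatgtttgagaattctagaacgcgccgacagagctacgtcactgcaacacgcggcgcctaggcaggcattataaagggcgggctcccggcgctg
Ankrd1, minus strand, chr19:36120037-36120066: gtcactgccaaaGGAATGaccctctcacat
Ankrd1, minus strand, chr19:36119950-36119979: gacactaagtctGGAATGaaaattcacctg
Amotl2, plus strand, chr9:102717727-102717756: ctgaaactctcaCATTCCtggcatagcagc
Yap1, minus strand, chr9:8004705-8004764: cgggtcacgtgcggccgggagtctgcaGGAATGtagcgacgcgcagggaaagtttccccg
Wwtr1, minus strand, chr3:57576014-57576073: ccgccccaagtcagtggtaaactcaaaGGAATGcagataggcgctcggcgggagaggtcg
Tead3, minus strand, chr17:28350702-28350730: ccgggctCATTCCgtaCATTCCggccatc
Tead3, minus strand, chr17:28350955-28351014: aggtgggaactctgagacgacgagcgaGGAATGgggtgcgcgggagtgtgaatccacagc
The stretches of *Ankrd1* and *Amotl2* and the first of *Tead3* lie within annotated exons and were kept short, whereas those of *Ccn1*, *Yap1* and *Wwtr1* and the second of *Tead3* touch no annotated exon. A match says only that the letters are present, and these data hold no measure of TEAD binding. Across the tested genes with such a sequence, the letters were found in 14.3% of the 4268 genes called higher in AAN, in 14.6% of the 431 called lower and in 13.2% of all 12112.

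The question behind the comparison of sham and AAN mice was which transcripts differ in the fibrotic kidney. A gene was called where limma, a linear model with moderated variances, gave an adjusted p no higher than 0.05 and the groups differed at least 2-fold. By these limits 5 of the 10 genes were higher in AAN and 0 were lower: *Tead2* and the 4 target genes. SE below is the standard error of the log2 fold change, and adjusted p is that of limma. Over all genes tested, 35.8% were called higher and 3.43% lower by the same limits. Without the fold limit 9 of the 10 were higher, against 55.4% of all genes higher and 6% lower, and *Tead1* was the exception. After rescaling by the median of ratios 3 of the 10 were called higher, *Ankrd1*, *Tead2* and *Ccn1*, where 19.1% of all genes were called higher and 10.5% lower. Without the fold limit these were 4 of 10, against 26% higher and 21% lower. As deposited, the levels of the groups did not overlap in 7 of the 10 genes, against 40.3% of all genes higher and 3.25% lower without overlap. Overlap of levels, here and below, was not examined after rescaling. The median log2 fold change as deposited was 1.04 over the 10 genes and 0.75 over all genes. The 10 genes ranged from the 35.7 percentile of all genes (*Wwtr1*) to the 98.9 percentile (*Ankrd1*).

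**Figure D1:**
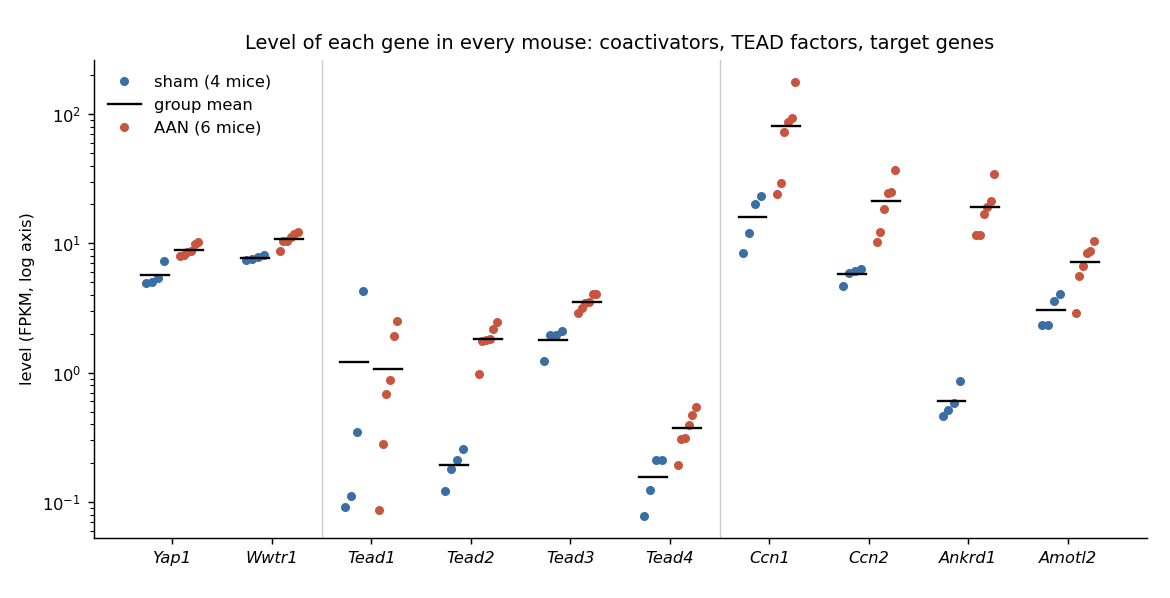
Level of each of the 10 genes in every mouse, in FPKM on a log axis, with sham mice in blue, AAN mice in red and black bars for group means. *Ankrd1* and *Tead2* lie far apart between the groups, *Yap1* and *Wwtr1* lie close together, and *Tead1* spreads from 0.0872 to 4.26 FPKM within and across both groups.

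The coactivators were higher in AAN by less than the median gene. *Yap1* (ENSMUSG00000053110, chromosome 9 of GRCm38 from 7931999 to 8004596, minus strand) was at 7.33, 5.02, 4.91 and 5.41 FPKM in the sham mice B607, B634, B636 and H249. In AAN mice it ranged from 7.95 to 10.3 FPKM with a median of 8.64. As deposited, every AAN mouse lay above every sham mouse, and the nearest were B630 (7.95 FPKM) and B607 (7.33 FPKM). The means were 5.66 ± 1.13 FPKM (SD, n = 4) and 8.91 ± 0.954 FPKM (SD, n = 6), and the log2 fold change was 0.66 (SE 0.16, adjusted p = 0.00348). This lay 0.09 below the median of all genes on the log2 scale. After the median of ratios the log2 fold change of *Yap1* was -0.10 (SE 0.12, adjusted p = 0.554). After quantile normalization it was -0.03 (adjusted p = 0.872), so a change of *Yap1* was not detectable after either rescaling.

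*Wwtr1* (ENSMUSG00000027803, chromosome 3 from 57455649 to 57575910, minus strand) was at 7.82, 7.47, 7.59 and 8.13 FPKM in the sham mice in the same order. Its AAN levels ran from 8.80 to 12.2 FPKM with a median of 10.8, again with no overlap. As deposited, its sham levels were within 1.09-fold of each other. This was a closer range than in all but 0.42% of the 13323 genes averaging 0.5 FPKM or more and never at 0. The range after rescaling was not computed. The log2 fold change of *Wwtr1* was 0.47 (SE 0.14, adjusted p = 0.0103), which is 0.28 below the median of all genes. After the median of ratios it was -0.29 (adjusted p = 0.0705) and after quantile normalization -0.14 (adjusted p = 0.349). A change of *Wwtr1* was thus also not detectable after either rescaling. The log2 ratio of *Wwtr1* to *Yap1* within a mouse, computed from the values as deposited, averaged 0.46 ± 0.25 in sham (SD, n = 4) and 0.28 ± 0.19 in AAN (SD, n = 6). The difference of -0.19 (standard error 0.15) did not exceed the spread between mice (exact two-sided permutation test, p = 0.210, 0.367 adjusted over 7 ratios).

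Of the TEAD factors, which share a DNA-binding domain and differ in the tissues in which they are expressed, *Tead2* changed most. *Tead2* (ENSMUSG00000030796, chromosome 7 from 45215753 to 45233644, plus strand), known mainly from embryonic tissue, was at 0.212, 0.121, 0.179 and 0.257 FPKM in the sham mice. It ranged from 0.972 to 2.48 FPKM in AAN mice with a median of 1.81, and B614 was the lowest of them. The means differed 9.53-fold, and the log2 fold change was 2.70 (SE 0.26, adjusted p = 3.71e-06), 1.95 above the median of all genes. After the median of ratios it was 2.10 (adjusted p = 3.23e-05). The sham levels stood for at most 15.3 fragments per mouse on average and the AAN levels for at most 137, if the fragments lay over all annotated exons. The gene overlaps *Cd37*, a leukocyte gene of the opposite strand, in 13 exonic bases, which is 0.27% of its exonic length. *Cd37* averaged 0.183 FPKM in the sham group and 3.83 FPKM in the AAN group, a log2 fold change of 3.80 (adjusted p = 2.14e-07), and because strand use is not stated, reads of the pair in the shared bases cannot be told apart.

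*Tead3* (ENSMUSG00000002249, chromosome 17 from 28331671 to 28350817, minus strand) was at 1.94, 1.22, 1.96 and 2.09 FPKM in sham mice and at 2.92 to 4.08 FPKM in AAN mice, with a median of 3.51. The groups did not overlap, and the log2 fold change of 0.95 (SE 0.18, adjusted p = 0.000868) lay just under the 2-fold limit and 0.21 above the median of all genes. After the median of ratios it was 0.22 (adjusted p = 0.272). *Tead4* (ENSMUSG00000030353, chromosome 6 from 128224288 to 128300823, minus strand) had the lowest level of the family, at 0.210, 0.0774, 0.211 and 0.124 FPKM in sham and 0.194 to 0.546 FPKM in AAN mice (median 0.354). The AAN mouse B642 lay within the sham range, and the sham values stood for at most 9.37 fragments per mouse on average. *Tead4* had a log2 fold change of 0.87 (SE 0.28, adjusted p = 0.0170), 0.37 after the median of ratios (adjusted p = 0.282) and -0.42 after quantile normalization (adjusted p = 0.221).

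*Tead1* (ENSMUSG00000055320, chromosome 7 from 112679318 to 112906807, plus strand), usually the broadly expressed member of the family, had levels that did not follow the groups. The sham mice were at 4.26, 0.111, 0.351 and 0.0920 FPKM. The AAN mice were at 0.284 (A483), 0.885 (B614), 0.0872 (B630), 1.92 (B639), 0.686 (B642) and 2.52 FPKM (B666). The highest level was 46.3 times the lowest in sham and 28.9 times in AAN, where the medians over the same 13323 genes were 1.82 and 1.90. A spread at least as wide as that of *Tead1* was seen in 14 of these genes in sham and in 42 in AAN. The gene has 15 annotated transcripts over 13570 exonic bases. The log2 fold change of 0.62 had a standard error of 0.93 (adjusted p = 0.575), so a change of *Tead1* in either direction was not detectable.

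Because of this spread, the ratios to *Tead1* within a mouse carried standard errors of 1.14 to 1.23 on the log2 scale, and the 3 of them gave exact permutation p-values of 0.133 to 0.810. With *Tead3* as the reference instead, a choice made after the spread of *Tead1* was seen, the log2 ratio of *Tead2* rose from -2.70 ± 0.14 in sham (SD, n = 4) to -0.96 ± 0.33 in AAN (SD, n = 6). The difference of 1.74 (standard error 0.15) had an exact two-sided permutation p of 0.00952, the smallest this design can give, and all 6 AAN mice lay above every sham mouse. The ratio of *Tead4* to *Tead3* differed by -0.08 (standard error 0.22, exact permutation p = 0.752). Within the family, *Tead3* had the highest mean level in sham mice at 1.80 FPKM and in AAN mice at 3.55 FPKM. In sham, *Tead3* was above *Tead1* in 3 of 4 mice, and the ranges of the pair overlapped. *Tead2* went from 0.192 FPKM, where it overlapped *Tead4*, to 1.83 FPKM, above *Tead4* in every AAN mouse.

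**Figure D2:**
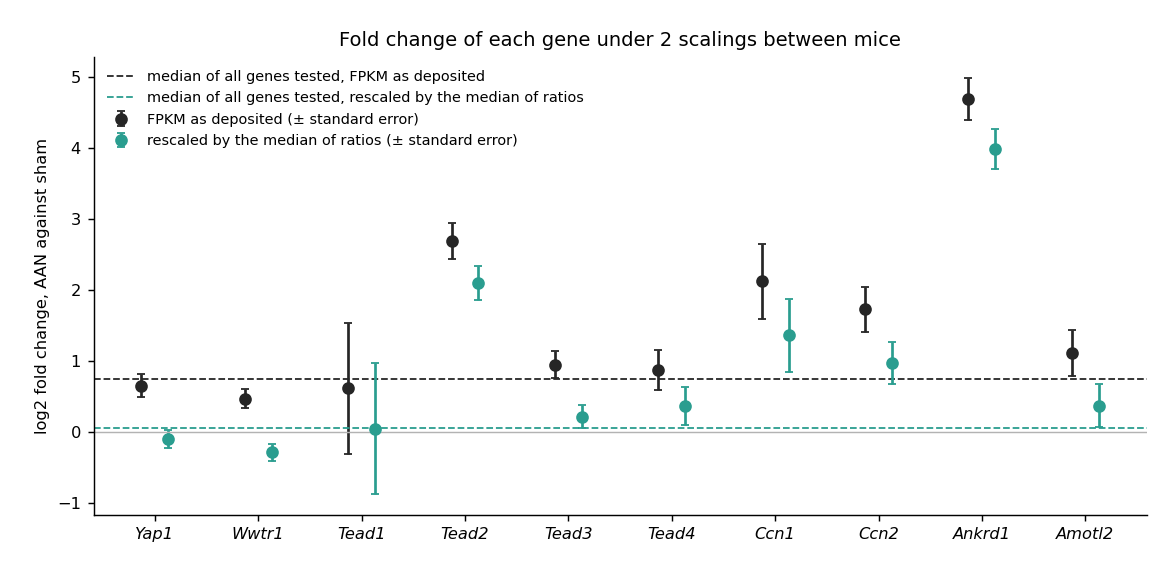
The log2 fold change of each gene between AAN and sham mice with its standard error from limma, for the FPKM as deposited in black and after rescaling by the median of ratios in green, with dashed lines at the median of all genes tested. *Yap1*, *Wwtr1* and *Tead1* sit below the black line at 0.75, *Tead3* and *Tead4* just above it, and *Ankrd1* and *Tead2* stand clear of both lines.

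The target genes were all higher in AAN, but by very different amounts. *Ankrd1* (ENSMUSG00000024803, chromosome 19 from 36111961 to 36120099, minus strand) was at 0.518, 0.465, 0.860 and 0.584 FPKM in the sham mice, levels that stood for at most 29.0 fragments per mouse on average. In AAN mice it ranged from 11.5 to 34.6 FPKM with a median of 18.0. The means differed 31.6-fold, and the lowest AAN mouse was more than an order of magnitude above the highest sham mouse. A log2 fold change of 4.70 (SE 0.30, adjusted p = 2.41e-07) put *Ankrd1* at the 98.9 percentile of all genes, 3.95 above their median. It was 3.99 after the median of ratios and 3.67 after quantile normalization, and it ranged from 4.504 to 4.853 with each mouse left out in turn.

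*Ccn1* (ENSMUSG00000028195, chromosome 3 from 145646976 to 145649981, minus strand) had the highest level of the 10 genes in both groups. It was at 20.2, 12.1, 23.3 and 8.44 FPKM in sham mice and at 178 (A483), 24.0 (B614), 29.2 (B630), 87.6 (B639), 93.8 (B642) and 73.1 FPKM (B666) in AAN mice. The 2 lowest AAN mice lay just above the highest sham mouse, and the AAN levels differed among themselves by 7.44-fold, a wider range than in 97.1% of the genes compared. The gene has 1 annotated transcript, so its values convert to fragments directly, and it had 281 to 774 fragments in the sham group and 760 to 5931 in the AAN group. For *Ccn1* the log2 fold change was 2.13 (SE 0.52, adjusted p = 0.00414) and 1.36 after the median of ratios (adjusted p = 0.0464). It was 1.83 without A483, the mouse with the highest level, and 1.57 in the mice whose tags begin with B alone (adjusted p = 0.0236).

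*Ccn2* (ENSMUSG00000019997, chromosome 10 from 24595442 to 24598683, plus strand), a secreted mediator of fibrosis, was at 6.16, 6.33, 5.95 and 4.72 FPKM in sham mice. It was at 10.3 to 37.0 FPKM in AAN mice with a median of 21.4, and the groups did not overlap. *Ccn2* had a log2 fold change of 1.73 (SE 0.32, adjusted p = 0.000616), 0.98 above the median of all genes. After the median of ratios it was 0.97 (adjusted p = 0.0195), just under the 2-fold limit, and after quantile normalization 1.11 (adjusted p = 0.0123). Its exons share 665 bases, 23.2% of its exonic length, with *Gm15270* on the opposite strand, which averaged 0.193 FPKM and 0.635 FPKM. Reads of the shared bases cannot be told apart without strand.

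*Amotl2* (ENSMUSG00000032531, chromosome 9 from 102716672 to 102733418, plus strand) was at 4.03, 2.33, 3.62 and 2.34 FPKM in sham mice and at 2.88 to 10.5 FPKM in AAN mice with a median of 7.57. The AAN mouse B639 lay within the sham range, although it ranked 3 of 6 for *Ccn1* and *Ankrd1*. *Amotl2* had a log2 fold change of 1.12 (SE 0.33, adjusted p = 0.0110), 0.37 above the median of all genes, and after the median of ratios it was 0.37 (adjusted p = 0.339). The call was lost in the mice with B tags alone (0.87, adjusted p = 0.0695) and was under the 2-fold limit without A483 (0.99).

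**Figure D3:**
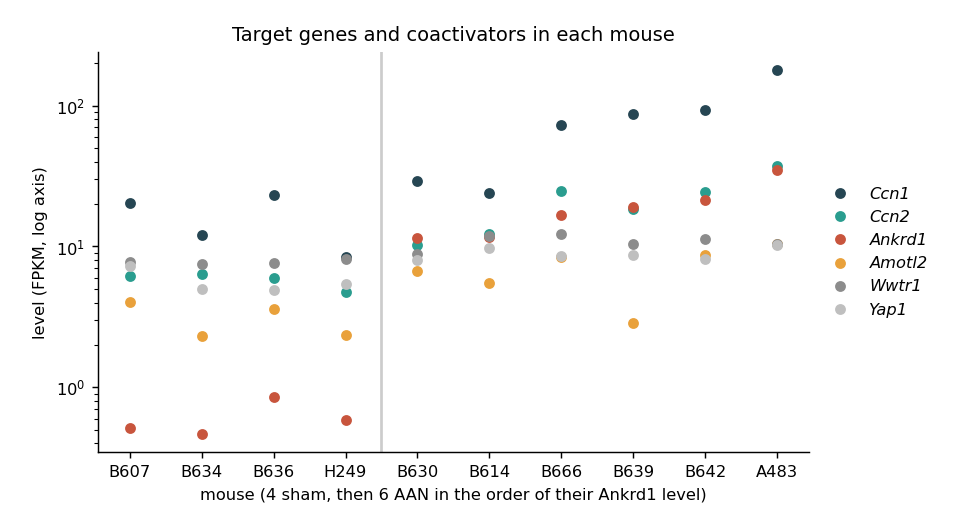
Levels of the 4 target genes and the 2 coactivators in each mouse, in FPKM on a log axis, with the 4 sham mice on the left and the 6 AAN mice in the order of their *Ankrd1* level. A483 is the highest AAN mouse for the 4 target genes, B614 and B630 are the 2 lowest for *Ccn1*, *Ccn2* and *Ankrd1*, and the coactivators stay between 4.91 and 12.2 FPKM.

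The same AAN mice were high or low for several target genes. A483 had the highest level of *Ccn1*, *Ccn2*, *Ankrd1* and *Amotl2*, and B614 and B630 had the 2 lowest levels of *Ccn1*, *Ccn2* and *Ankrd1*. A483 was also the highest AAN mouse for *Yap1*, *Tead2* and *Tead4*. For *Amotl2* the lowest mice were B639 and B614. These genes were measured in the same libraries, so the order is a description and carries no test. It is the order of the values as deposited and was not examined after rescaling.

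Of the 3 ratios between target genes within a mouse, that of *Ankrd1* to *Ccn2* separated the groups. The log2 ratio of *Ankrd1* to *Ccn2* was -3.08 ± 0.41 in sham (SD, n = 4) and -0.12 ± 0.25 in AAN (SD, n = 6), so the level of *Ankrd1* came close to that of *Ccn2* in AAN. The difference of 2.96 (standard error 0.23) had an exact two-sided permutation p of 0.00952, and all 6 AAN mice lay above every sham mouse. Adjusted over the 7 ratios this is 0.0667, and a single ratio cannot reach 0.05 after adjustment in this design. The ratio of *Ccn1* to *Ccn2* differed by 0.39 (standard error 0.35, exact permutation p = 0.286). That of *Amotl2* to *Ccn2* differed by -0.61 (standard error 0.33, exact permutation p = 0.105), and neither exceeded the spread between mice.

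**Figure D4:**
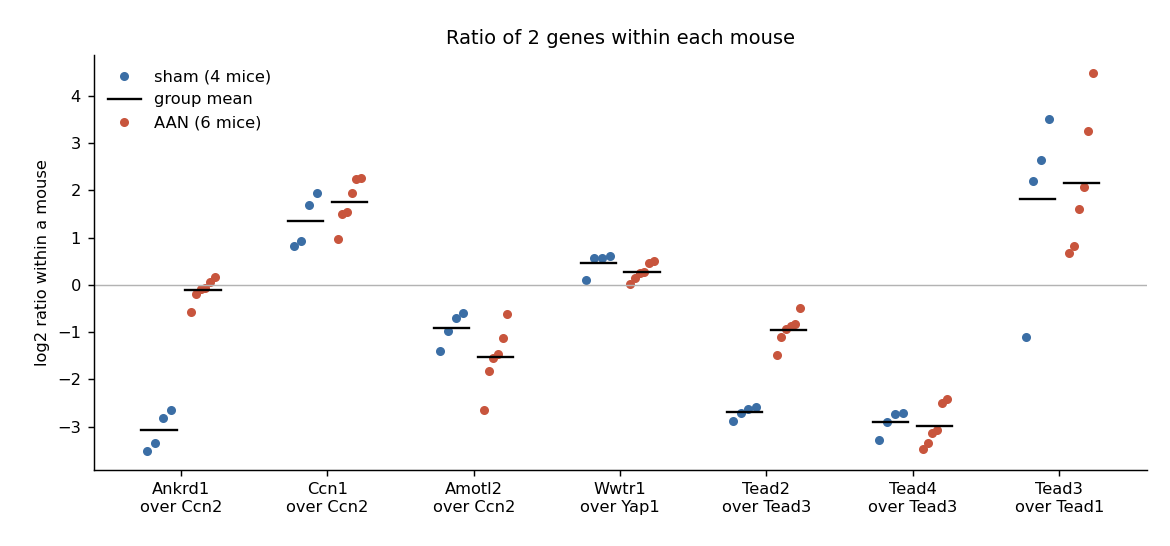
The log2 ratio of one gene to another within each mouse, with sham mice in blue, AAN mice in red and black bars for group means. *Ankrd1* over *Ccn2* and *Tead2* over *Tead3* separate the groups completely, the other ratios overlap, and *Tead3* over *Tead1* spreads widely in both groups.

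The order of the levels changed with these differences. In sham mice *Ccn1* was highest (16.0 ± 6.92 FPKM, SD, n = 4), followed by *Wwtr1*, *Ccn2* and *Yap1*, and the last pair did not differ beyond their spread. *Ankrd1* ranked 8 of 10 there. In AAN mice the order was *Ccn1* (81.0 ± 56.0 FPKM, SD, n = 6), *Ccn2* (21.2 ± 9.81), *Ankrd1* (19.2 ± 8.53) and *Wwtr1* (10.8 ± 1.23), and the ranges of each of these overlapped with the next. Compared within a mouse, *Ccn1* was above *Ccn2* in 6 of 6 and *Ccn2* above *Ankrd1* in 4 of 6. *Ankrd1* was above *Wwtr1* in 5 of 6 and *Wwtr1* above *Yap1* in 6 of 6. In AAN mice *Tead3* and *Tead2* were the one neighbouring pair whose ranges were separate.

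Upstream of YAP and TAZ, 7 of the 11 genes of the Hippo kinase cascade were called higher in AAN and 0 lower, where 35.8% of all genes were called higher. The median log2 fold change was 1.25 (0.75 over all genes). With the rescaled values 2 of 11 were called higher, near the 19.1% of all genes, with a median of 0.49. The rise was largest for *Map4k4*, a kinase that can act on LATS beside MST, from 1.37 ± 0.641 to 6.03 ± 1.68 FPKM (log2 fold change 2.10, SE 0.29, adjusted p = 6.85e-05, and 1.38 after the median of ratios). *Mob1a*, the adaptor that activates LATS, rose from 3.18 to 11.3 FPKM (1.82 as deposited and 1.07 after the median of ratios). *Lats1* (0.67) and *Lats2* (0.89), the kinases that phosphorylate YAP, passed the adjusted p as deposited but were under the 2-fold limit. Rescaled by the median of ratios, *Lats1* was at -0.08 (adjusted p = 0.648) and *Lats2* at 0.15 (adjusted p = 0.451), so neither change was detectable then.

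Among 12 regulators at the membrane and at junctions, 5 were called higher and 0 lower (35.8% of all genes higher), and the median log2 fold change of 0.81 lay near that of all genes. Of the 12, 1 was called higher after the median of ratios (19.1% of all genes), with a median of 0.05. *Frmd6*, a FERM domain protein, rose from 0.616 ± 0.225 to 3.39 ± 0.479 FPKM (log2 fold change 2.33, SE 0.22, adjusted p = 3.51e-06, and 1.64 after the median of ratios). *Ajuba*, a LIM protein that inhibits LATS, rose from 6.38 to 20.1 FPKM (1.61 as deposited and 0.85 after the median of ratios). *Nf2*, the tumour suppressor Merlin that recruits LATS to the membrane, was at 8.15 and 9.44 FPKM (0.22, adjusted p = 0.251), and after the median of ratios it was lower in AAN by 0.54 on the log2 scale (-0.54, adjusted p = 0.00264).

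Of the genes whose proteins bind YAP, TAZ or TEAD, 10 of 12 were measured, and *Vgll1* and *Vgll2* were not analysed here. Of these 10, 6 were called higher and 0 lower (35.8% of all genes higher), with a median log2 fold change of 1.21. By the median of ratios 2 of 10 were called higher, near the 19.1% of all genes, with a median of 0.46. *Vgll3*, a vestigial-like protein that binds TEAD in place of YAP, rose most, from 0.122 ± 0.0739 to 1.495 ± 0.618 FPKM (log2 fold change 2.82, SE 0.32, adjusted p = 1.60e-05). It was 2.31 after the median of ratios. *Ptpn14*, a phosphatase that binds YAP and is itself a target gene, rose from 0.816 to 2.88 FPKM (1.72), and *Tjp1*, which encodes ZO-1, from 2.45 to 7.89 FPKM (1.73). They were at 1.02 and 0.99 after the median of ratios.

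A further 17 of 18 genes widely used as YAP and TAZ targets were measured, and *Foxf2* was not analysed here. Of these, 9 were called higher and 0 lower (35.8% of all genes higher), with a median log2 fold change of 1.29. With this rescaling 7 of 17 were called higher (19.1% of all genes), with a median of 0.61. *Myof*, a membrane repair protein, rose from 1.77 ± 0.976 to 23.7 ± 6.71 FPKM (3.75, SE 0.32, adjusted p = 1.81e-06). *Axl*, a receptor tyrosine kinase, rose from 2.58 ± 0.110 to 32.1 ± 6.96 FPKM (3.56, SE 0.18, adjusted p = 1.26e-07), and *Ccdc80*, a matrix protein, from 0.651 to 7.36 FPKM (3.24). *Myof* was at 3.02, *Axl* at 2.81 and *Ccdc80* at 2.54 after the median of ratios. In contrast *Igfbp3* was at 25.1 and 28.1 FPKM (0.22, adjusted p = 0.406), *Nt5e* at 7.13 and 7.06 FPKM (0.12, adjusted p = 0.749) and *Nuak2* at 14.01 and 23.3 FPKM (0.63, adjusted p = 0.102). These were at -0.54, -0.63 and -0.13 after the median of ratios (adjusted p = 0.117, 0.0503 and 0.755). The sign of their estimates turned, but none passed the adjusted threshold by either scaling. *Lats2* and *Ptpn14* belong to this list and to a list above.

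The CCN family has other members beside *Ccn1* and *Ccn2*, and *Ccn3*, *Ccn4* and *Ccn5* were called higher (35.8% of all genes higher), all from low levels. *Ccn6* was not analysed here. *Ccn4* rose from 0.193 ± 0.101 to 1.51 ± 0.583 FPKM (log2 fold change 2.45, SE 0.29, adjusted p = 2.04e-05). *Ccn3* rose from 0.0750 to 0.455 FPKM (1.68). *Ccn4* was at 1.85 and *Ccn3* at 1.21 after the median of ratios, and 3 of 3 were still called higher (19.1% of all genes). *Ccn5* was listed at 0 in all sham mice and at 0.335 to 0.901 FPKM in AAN mice, so no fold is given for it.

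**Figure D5:**
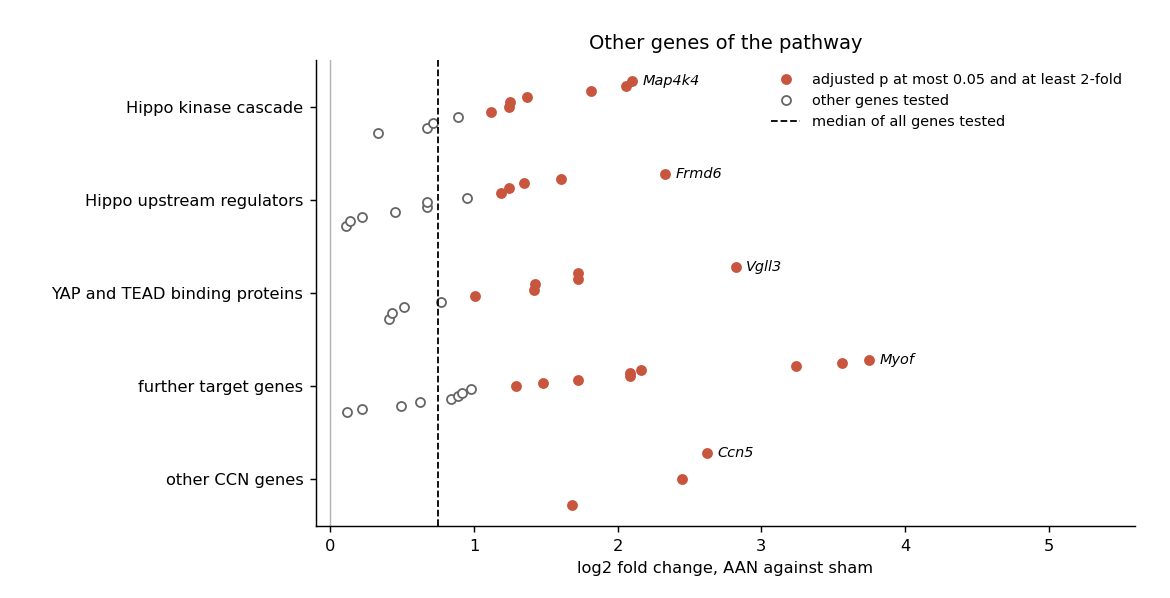
The log2 fold change between AAN and sham mice of the other pathway genes, one row per list and one point per gene, with filled points for genes called and a dashed line at the median of all genes tested (0.75). The name beside each row is that of its highest gene, and 0 genes were called lower. The point for *Ccn5* depends on the pseudocount, since its sham levels were listed at 0.

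Markers of fibroblasts, leukocytes and injured tubules were higher in AAN, those of the proximal tubule were mostly lower, and other lists differed less. Over all genes, 35.8% were called higher and 3.43% lower. The summed level of 7 fibroblast markers was 14.2 to 19.2 FPKM in sham and 102 to 231 FPKM in AAN mice, with 7 of 7 called higher, and *Col1a1*, for collagen I, rose from 2.75 to 63.4 FPKM. The sum of 8 leukocyte markers was 8.84 to 16.5 and 171 to 502 FPKM, with 8 of 8 higher. The sum of 8 injured tubule markers was 189 to 299 and 1511 to 3831 FPKM, with 8 of 8 higher. Of 7 smooth muscle and myofibroblast markers, 4 were higher, with sums of 49.0 to 74.3 and 98.6 to 313 FPKM. Of 8 proximal tubule markers 5 were lower, with sums of 1751 to 3935 and 540 to 2061 FPKM, and 1 of 5 thick limb and 1 of 8 distal tubule and collecting duct markers were lower. Single genes made up most of 2 of these sums: *Slc34a1* (proximal tubule) averaged 2008 and 674 FPKM, and *Spp1* (injured tubule) 146 and 2188. *Slc5a12* of the proximal tubule list was not lower, at 7.87 and 9.66 FPKM. Of 6 podocyte markers 1 was higher (sums of 43.3 to 84.0 and 48.2 to 127 FPKM), and of 8 endothelial markers 0 were called (34.2 to 57.8 and 53.9 to 75.4 FPKM). With the values rescaled by the median of ratios, where 19.1% of all genes were called higher and 10.5% lower, the fibroblast, leukocyte and injured tubule counts were as before. By that scaling 7 of 8 proximal tubule, 3 of 5 thick limb, 4 of 8 distal tubule and collecting duct and 1 of 8 endothelial markers were lower. Of the smooth muscle and myofibroblast markers 2 were then higher and 1 lower, and 0 podocyte markers were called. The markers of the labelled tissue, from proximal tubule to collecting duct and podocyte, were present in every mouse. The part of any of these cell types in the levels of the 10 genes was not tested.

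The genes whose deviations from the group means were most like those of a member were found over the 10 mice among 12232 genes averaging 1 FPKM or more. For *Yap1* they were *Upf2*, *Usp16* and *Baz1b* (Pearson r of 0.968, 0.968 and 0.956). For *Ccn2* they were *Rpl18*, *Ccl6* and *Cdc42ep4* (r of 0.950, 0.930 and 0.920). For *Ankrd1* they were *Fam104a*, *Hbegf* and *Dgat1* (r of 0.918, 0.906 and 0.900). These are the highest of many correlations over few mice that share their libraries and depth, and they describe a likeness of pattern only.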

How the data were processed

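Paired-end TruSeq RNA libraries of kidney cortex were sequenced on the HiSeq Xten. The authors filtered the reads, aligned them to GRCm38.p4 by Hisat2 2.0.4 and deposited FPKM of known gene models from Stringtie 1.3.0, 1 value per gene and mouse, with no further scaling stated. The annotation release and strand use are not given in the sources used here. The study used a count model, but the deposited values are FPKM, so limma 3.58.1 in R 4.3.3 (trend, robust) was run on log2(FPKM + 0.1) for genes averaging 0.1 FPKM or more, with Benjamini-Hochberg adjustment over all 17129 genes. Fold changes are on this scale and understate those of low genes.

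Symbols and positions came from GENCODE mouse release 21, which holds 21650 of the 21792 genes. Depth was recovered from genes with 1 transcript and values under 0.3 FPKM, of which 95.6% were whole fragments within 0.05. Fragment numbers cover counting error only. Exact two-sided permutation tests used the 210 ways of dividing the 10 mice, with the smaller tail doubled, and their smallest p is 0.00952. Where nothing states separate litters or days, p-values measure the spread between these mice. No batch is labelled, and one that followed the groups could not be told apart from them.

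The fit was tested on simulated data with 200 changed genes, as many up as down. It called 77.3% of 88 genes changed by 1.5 on the log2 scale, 98.9% of 89 changed by 3 and 8 of 15000 unchanged genes. That setting lacks the general rise of these data, so it does not measure calls under such a rise. The permutation p-values were checked only against those of scipy. Scripts ran in Python 3.11.15 (scipy 1.17.1, pandas 2.3.3, numpy 2.4.6) and figures were drawn in matplotlib 3.10.9. The members, gene lists and alternatives were chosen with earlier results of these data known. The rule for named genes took, in each list, the called genes with the largest rise and fall and those a result turns on, and the 3 genes nearest in pattern to *Yap1*, *Ccn2* and *Ankrd1*. Other list genes are named as examples chosen after their values were seen.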

Additional observations from a re-analysis of the deposited data

Results flagged for a closer look

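In the sham mouse B607 the level of *Tead1* was 4.26 FPKM, while the 3 other sham mice were at 0.0920 to 0.351 FPKM. This was a mouse far from the rest of its group by Dixon's test at 95%. That test used the FPKM themselves, not the log2 values of the other tests, and was not run on the log2 scale. The level in B607 was the 1 such value in 20 groups of values examined, where chance gives 1. Without B607 the log2 fold change of *Tead1* was 1.63, against 0.62 with all mice, and neither passed the adjusted threshold (adjusted p = 0.0785 and 0.575).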

How the results depend on the processing

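Over 20 alternatives, *Ankrd1*, *Tead2* and *Ccn1* kept their direction and their call in each, with log2 fold changes of 3.56 to 4.89, 1.23 to 3.18 and 1.36 to 2.41. A pseudocount of 1 gave 2909 higher genes in place of 6126, and a minimum mean of 1 FPKM, under which fewer genes are tested, gave 4025. Rescaling by the median of ratios gave 3266 higher and 1802 lower genes (588 as deposited), quantile normalization 2216 and 2110, and dropping the fold limit 9482 and 1027. Of the 10 members, 5 were called higher, 3 after the median of ratios and 9 without the fold limit. *Yap1* was at -0.096 and -0.028 and *Wwtr1* at -0.29 and -0.14 after the median of ratios and quantile normalization, and *Tead1* was at -0.51 and *Tead4* at -0.42 after the latter. None of these negative values passed the adjusted threshold, and the cause of the turns of sign was not tested.

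Leaving out single mice gave 5457 to 6653 higher genes, 528 to 701 lower genes and 4 to 6 members called. *Tead3* passed the 2-fold limit without the sham mice B636 (1.001) or H249 (1.03), without B614 (1.006), or with B tags alone (1.03), and *Tead4* with a pseudocount of 0.01 (1.23). *Tead4* fell under the minimum mean of 1 FPKM and has no value there. The ratio of *Tead3* to *Tead1* lay between -0.63 and 0.90 and that of *Tead4* to *Tead1* between -0.65 and 0.69, so both turned, lowest without B607. The ratio of *Ankrd1* to *Ccn2* was 1.97 with a pseudocount of 1 and at most 3.15. No paired analysis was possible because the groups are different mice and the labels match no sham mouse to an AAN mouse.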
